A study of Homo sapiens with 3 samples.

Results

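Growth factor receptors and the adaptors that bind them were followed through the FOXM1 chromatin occupancy of Huh7, a widely used line from a human liver cancer (hepatocellular carcinoma). The set held 10 genes of 19970 protein-coding genes on chromosomes 1 to 22 and X: the receptor genes EGFR, ERBB2, ERBB3, MET, FGFR4, IGF1R and INSR, and the adaptor genes SHC1, GRB2 and IRS1. A peak was given to a gene when its summit lay inside the gene, or within 5 kb of it, on RefSeq coordinates of GRCh38. This placed 32 peaks at the genes, 15 of 8271 in replicate 2 and 17 of 11502 in replicate 3. The series was made from untreated cells and held 2 ChIP libraries, made with antibody G-5 against FOXM1, and 1 input library without antibody. The input reads were not analysed here. The ChIP libraries are called replicate 2 and replicate 3 here, after the numbers 2 and 3 in their labels. Separate cultures are not stated for the libraries, and all cells were of 1 line. No library came from cells without FOXM1 or from another antibody, so the specificity of the peaks for FOXM1 was not tested.

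Receptor tyrosine kinases are cell surface proteins that phosphorylate themselves when a growth factor binds, and the phosphorylated tails then dock adaptor proteins. SHC1 and GRB2 link many receptors to RAS and the MAP kinases, and IRS1 carries signals of the insulin and IGF1 receptors to PI3 kinase. In hepatocytes, EGFR and MET drive growth in regeneration, FGFR4 receives the bile acid signal FGF19, and INSR controls glucose and lipid metabolism. FOXM1 is a forkhead transcription factor that drives genes of mitosis and is itself known to be raised by growth factor signals.

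In replicate 3 every one of the 10 genes had a peak, and in replicate 2 all but MET did. Peaks in both libraries therefore stood at 9 of 10 genes, against 28.5% of all protein-coding genes under the same rule. In replicate 2 the 9 of 10 compare with 33.4% of all protein-coding genes, and in replicate 3 the 10 of 10 compare with 41.3%. At the same 9 genes at least 1 pair of peaks from the libraries overlapped, against 25.5% of all protein-coding genes. The genes are longer than most, from 11.2 to 316 kb with a median of 78.1 kb against 24.2 kb for all protein-coding genes, and a longer gene has more room for a peak. Per 100 kb of gene and flanks the set had 1.29 peaks in replicate 2 and 1.47 in replicate 3, against 0.667 and 0.913 over all protein-coding genes. Neighbouring peaks were counted 1 by 1 in this. IGF1R alone gave 3 of the 15 peaks in replicate 2 and 4 of the 17 in replicate 3, all within 1 kb of its start. A window of fixed size around each annotated start was also used, and a gene with more than 1 start has more than 1 window. By that measure, 6 of the 9 genes with a RefSeq promoter window had a summit within 1 kb of a start in both libraries, against 22.4% of 15811 protein-coding genes with such a window. ERBB3 had no promoter window. Of the same 9 genes, 8 had peaks in both libraries, and 2 of these (ERBB2 and SHC1) had no summit within 1 kb of a start in either. Among the 4567 protein-coding genes with a promoter window and a peak in both libraries, 584 (12.8%) were of this kind. The peaks of ERBB2 and SHC1 lay near the starts of neighbours, MIEN1 and PYGO2. The peak lists allow no test between groups of samples, and these counts describe the libraries. The part of gene length in them was not tested. The 10 genes were chosen with earlier results of these data known, so their contrast with all genes is a description only.

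**Figure D1:**
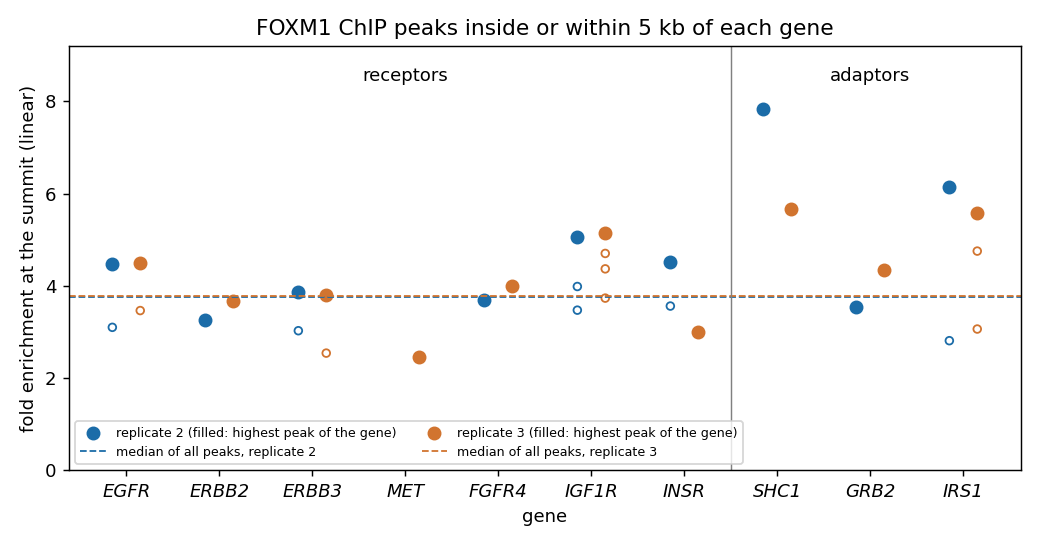
Fold enrichment (linear, vertical axis) of each peak at the 10 genes (horizontal axis, receptors left and adaptors right) in replicates 2 and 3; filled points are the highest peak of a gene, open points its other peaks, and dashed lines the medians of all peaks (3.76 and 3.78). SHC1 and IRS1 carry the highest points, and MET has a single point, in replicate 3.

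Fold enrichment is the authors' own value for each peak, the scaled number of ChIP fragments at the summit over the local background. Which library served as the control for that background is not given in the sources used here. The −log10 q beside it is the deposited significance of the peak, and the lowest value in the lists was 1.32 in replicate 2 and 1.31 in replicate 3. Across the peaks of the set, fold ran from 2.81 to 7.84 with a median of 3.69 in replicate 2, and from 2.45 to 5.67 with a median of 3.99 in replicate 3. The medians of the whole lists were 3.76 and 3.78, so by fold the peaks of the set were of ordinary height. Counted 1 by 1, 7 of 15 peaks in replicate 2 and 10 of 17 in replicate 3 lay above their list's median. The highest peak of the gene lay above it at 6 of 9 genes in replicate 2 and at 7 of 10 in replicate 3. That count takes the best of several peaks at some genes, which favours values above a median of single peaks. Fragment counts at the summits, which follow from the authors' fold and p, were 18 to 50 in replicate 2 and 16 to 40 in replicate 3, over backgrounds of 4.0 to 10.0 and 3.70 to 10.0. A value thus rested on few fragments. The median −log10 q of the set was 4.509 in replicate 2 and 4.908 in replicate 3, against 3.816 and 3.825 in the whole lists. Median fragments were 28 and 30, against 26 and 24.5. By these measures the set's medians were above those of the lists.

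Among the receptors, IGF1R, which binds IGF1 and IGF2, had the most peaks and the highest fold. Replicate 2 had 3 peaks there and replicate 3 had 4, all with summits within 1 kb of the annotated start (chromosome 15, position 98648539). They formed a run from 912 bp before the start to 781 bp after it. The most upstream peak had its summit 878 bp before the start in replicate 2 (fold 5.07, −log10 q 7.92, 34 fragments) and 912 bp before it in replicate 3 (fold 4.70, −log10 q 7.03, 30 fragments). Nearer to the start, the summit was 274 bp before it in replicate 2 with fold 3.98 and 114 bp before it in replicate 3 with fold 5.14, the highest of the gene. A further peak of replicate 3 lay 107 bp after the start with fold 3.73. The most downstream peaks had summits 781 and 779 bp after the start, with fold 3.47 in replicate 2 and 4.37 in replicate 3. Those summits were 2 bp apart, the closest pair in the set. No other summit was found in the 316 kb of the gene. The same peaks lie inside IRAIN, a long noncoding RNA gene on the opposite strand, 1467 to 3160 bp past its annotated start, so a peak cannot be given to 1 of these genes alone.

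The promoter window of IGF1R, from 250 bases before the start to 50 after it, is printed because the peaks cover 300 of its 300 bases in replicate 2 and 214 in replicate 3. It is also the single window of the set that holds a forkhead core, TAAACA. Capitals mark matches to the motifs searched, here GC boxes (GGGCGG) and, at the downstream edge, the forkhead core on the reverse strand. That core lies under a peak of replicate 2 but in the gap between peaks of replicate 3.
IGF1R (chr15:98648289-98648588, plus strand): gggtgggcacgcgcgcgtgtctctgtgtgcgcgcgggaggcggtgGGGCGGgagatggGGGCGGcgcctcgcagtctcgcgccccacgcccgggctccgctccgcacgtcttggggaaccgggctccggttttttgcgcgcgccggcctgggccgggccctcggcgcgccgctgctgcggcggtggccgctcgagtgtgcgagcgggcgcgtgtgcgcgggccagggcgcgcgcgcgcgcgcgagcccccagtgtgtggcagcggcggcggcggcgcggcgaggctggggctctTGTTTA

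EGFR, the receptor for EGF and TGFA, had peaks at its upstream start and none in the rest of its 192612 bp. In replicate 2 the main summit lay 67 bp after the start at position 55019017 of chromosome 7, with fold 4.47 and −log10 q of 8.23 on 41 fragments. In replicate 3 it lay 122 bp after the start, with fold 4.50 and −log10 q of 8.40 on 40 fragments. These summits were 55 bp apart and their folds differed by 0.023. Each library had a second, lower peak farther into the gene, 408 bp after the start in replicate 2 (fold 3.10) and 1220 bp after it in replicate 3 (fold 3.46). From there to the finish, 191391 bp, no summit was called in either library, and the second annotated start of EGFR, at position 55109839, had no peak base in its promoter window. The noncoding gene LOC105375284 has a start on the opposite strand, 162 and 217 bp from the main summits of replicates 2 and 3.
The window at the upstream start of EGFR is shown for its 3 GC boxes, in capitals. Peaks covered 212 of its bases in replicate 2 and 220 in replicate 3.
EGFR (chr7:55018767-55019066, plus strand): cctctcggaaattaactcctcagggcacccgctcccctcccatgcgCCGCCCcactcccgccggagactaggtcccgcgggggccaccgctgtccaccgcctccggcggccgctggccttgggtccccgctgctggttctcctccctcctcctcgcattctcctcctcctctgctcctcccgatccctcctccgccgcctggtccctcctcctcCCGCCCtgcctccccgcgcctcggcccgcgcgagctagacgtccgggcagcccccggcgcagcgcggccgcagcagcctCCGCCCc

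FGFR4, the hepatocyte receptor for FGF19, had 1 peak in each library, directly on its upstream start. The summit was 17 bp before the start in replicate 2 (fold 3.69, −log10 q 4.51, 30 fragments) and 39 bp after it in replicate 3 (fold 3.99, −log10 q 5.30, 31 fragments). The folds lay on either side of the list medians, and the summits were 56 bp apart. The second start of FGFR4, at position 177089550 of chromosome 5, had no peak base in its window. The window of the upstream start holds both summits and has 7 GC boxes, the most in the set.
FGFR4 (chr5:177086665-177086964, plus strand): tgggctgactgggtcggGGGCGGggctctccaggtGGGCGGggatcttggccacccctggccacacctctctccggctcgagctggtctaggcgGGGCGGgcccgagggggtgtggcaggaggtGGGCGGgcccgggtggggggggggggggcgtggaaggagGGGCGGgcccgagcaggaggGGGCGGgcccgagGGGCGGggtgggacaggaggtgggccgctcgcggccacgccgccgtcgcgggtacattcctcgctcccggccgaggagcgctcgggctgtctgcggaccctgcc

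INSR, the insulin receptor, had peaks around its start at position 7294414 of chromosome 19 that differed between the libraries. Replicate 2 had a summit 87 bp before the start with fold 4.52 and −log10 q of 5.30, and another 439 bp after it with fold 3.56. Replicate 3 had a single, wider peak of 536 bp whose summit lay 297 bp after the start, with fold 3.01 and −log10 q of 3.35. The highest fold at INSR was thus 1.52 higher in replicate 2 than in replicate 3. The fragments behind these peaks were 27 and 30 in replicates 2 and 3, and the local backgrounds were 4.28 and 8.0.

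MET, the receptor for hepatocyte growth factor, had the weakest evidence of the set. Replicate 2 had no peak inside it or within 10 kb. Replicate 3 had 1, with its summit 36 bp after the start at position 116672196 of chromosome 7, fold 2.45 and −log10 q of 1.59. Only 1.54% of the peaks of replicate 3 had a lower fold. It rested on 27 fragments (exact 95% Poisson interval 17.8 to 39.3, counting error only) over a background of 9.0. The lists hold peaks that passed the authors' threshold, so the missing peak in replicate 2 says that the threshold was not passed there. The summit also lies inside COMETT, a noncoding gene on the opposite strand, 57575 bp before the start that its promoter window marks. The promoter window of MET is shown because the replicate 3 summit lies in it. It holds 3 GC boxes and 1 E-box (CACGTG).
MET (chr7:116671946-116672245, plus strand): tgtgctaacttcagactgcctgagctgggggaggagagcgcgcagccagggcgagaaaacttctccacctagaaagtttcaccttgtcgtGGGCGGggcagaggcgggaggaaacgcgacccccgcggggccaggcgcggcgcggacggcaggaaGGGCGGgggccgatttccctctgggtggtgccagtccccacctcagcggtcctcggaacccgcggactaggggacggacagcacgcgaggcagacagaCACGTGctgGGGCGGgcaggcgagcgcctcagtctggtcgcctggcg

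ERBB2 and ERBB3, partner receptors of the EGFR family, had peaks outside the genes only. The ERBB2 peaks and the stronger peaks of ERBB3 lay next to the start of a neighbour. At ERBB2 no summit lay in the gene or near its start. The peaks were 1848 bp beyond its finish in replicate 2 (fold 3.25, −log10 q 1.997, 18 fragments) and 1862 bp beyond it in replicate 3 (fold 3.68, −log10 q 3.04, 20 fragments). That is 42412 and 42426 bp from the start of ERBB2, but 26 and 12 bp inside MIEN1, a gene that begins there on the opposite strand. MIR4728, a microRNA gene inside ERBB2, also lay within 5 kb. The ERBB2 summits were the farthest from their gene in the set. No summit lay between 2 and 10 kb from a gene of the set, so the choice of 5 kb within that range moved no member. At ERBB3 (chromosome 12, 56080108 to 56103505), the stronger peaks were beyond the upper coordinate end, by 625 bp in replicate 2 (fold 3.86, −log10 q 5.36) and 991 bp in replicate 3 (fold 3.80, −log10 q 4.91). They lay 429 and 63 bp before the start of PA2G4, which encodes a protein known to bind ERBB3. The noncoding gene LOC105369782, on the opposite strand, has its start there too, 289 bp before the summit of replicate 2, which lies inside it, and 77 bp from that of replicate 3, which lies outside it. Weaker peaks stood before the lower coordinate end of ERBB3, by 527 bp in replicate 2 (fold 3.03, −log10 q 2.68) and 755 bp in replicate 3 (fold 2.54, −log10 q 2.01). These last were not within 5 kb of any other annotated gene. The reference used gave no strand for ERBB3, so which of its ends is the start was not set here.
The promoter window of ERBB2 is shown for contrast, since no peak touched it in either library. Its capitals mark a CCAAT box on the reverse strand (ATTGG), an AP-1 match (TGANTCA) and ETS matches (CCGGAAG) on each strand, with no GC box.
ERBB2 (chr17:39687844-39688143, plus strand): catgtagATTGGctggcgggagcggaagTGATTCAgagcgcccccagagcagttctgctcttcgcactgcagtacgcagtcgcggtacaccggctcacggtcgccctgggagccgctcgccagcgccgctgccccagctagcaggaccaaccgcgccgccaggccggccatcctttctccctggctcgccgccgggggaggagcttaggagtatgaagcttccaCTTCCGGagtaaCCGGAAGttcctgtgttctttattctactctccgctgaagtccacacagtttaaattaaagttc

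**Figure D2:**
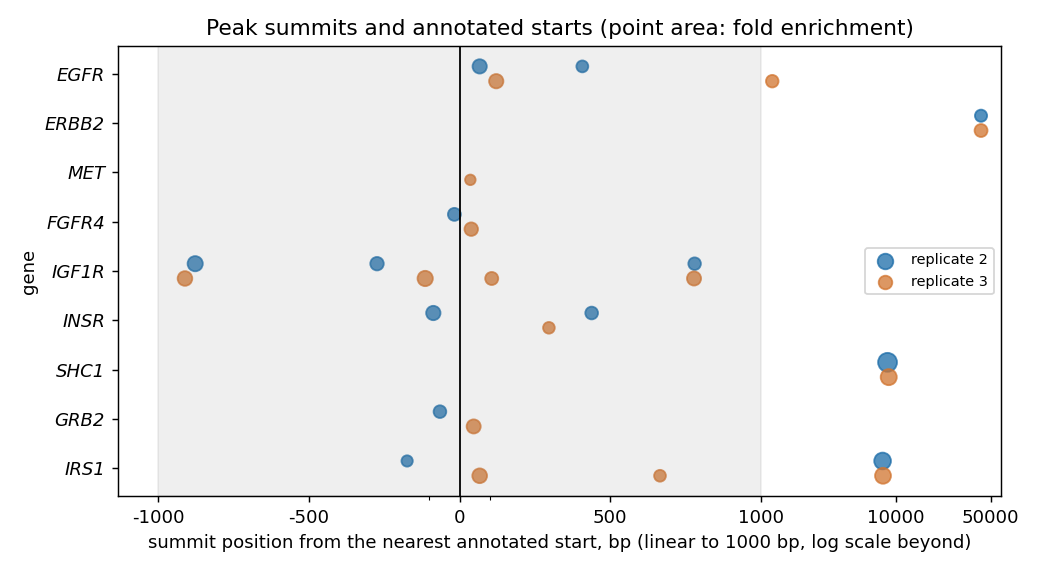
Position of each summit from the nearest annotated start in bp (horizontal axis, linear to 1000 bp and on a log scale beyond; minus is before the start) for the 9 genes with a promoter window, with point area in proportion to fold enrichment. ERBB2 and SHC1 have no summit in the grey band within 1 kb of a start, while 21 of the 28 summits drawn lie in it.

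Of the adaptors, SHC1 carried the highest fold of the set, but not at its own start. The summit lay 209 bp beyond the finish of SHC1 in replicate 2 (fold 7.84, −log10 q 19.8, 50 fragments) and 385 bp beyond it in replicate 3 (fold 5.67, −log10 q 11.2, 38 fragments). In replicate 2 only 2 of 8271 peaks had a higher fold, and in replicate 3 it was 218 of 11502. Exact 95% Poisson intervals of the fragments, 37.1 to 65.9 in replicate 2 and 26.9 to 52.2 in replicate 3, overlapped. The nearest start of SHC1 was 8658 bp away in replicate 2 and 8834 bp away in replicate 3. The start of PYGO2, which encodes a Wnt coactivator, was 307 and 131 bp away, and the summits lay inside the noncoding gene PYGO2-AS1. Both SHC1 promoter windows were free of peak bases. The PYGO2 window is printed because peaks covered all 300 of its bases in both libraries. It lies beyond the finish of SHC1 on the same strand and holds 3 GC boxes.
PYGO2 (chr1:154961733-154962032, minus strand): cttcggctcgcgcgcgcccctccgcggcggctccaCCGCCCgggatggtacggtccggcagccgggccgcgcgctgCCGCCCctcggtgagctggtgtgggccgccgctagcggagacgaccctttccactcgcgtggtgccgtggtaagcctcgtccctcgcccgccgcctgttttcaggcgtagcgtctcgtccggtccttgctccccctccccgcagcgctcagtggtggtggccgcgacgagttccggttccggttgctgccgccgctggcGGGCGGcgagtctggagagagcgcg

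GRB2, the adaptor that brings SOS to the receptors, had 1 peak in each library on its start at position 75405678 of chromosome 17. The summit lay 65 bp before the start in replicate 2 (fold 3.54, −log10 q 3.73, 28 fragments) and 47 bp after it in replicate 3 (fold 4.35, −log10 q 4.64, 24 fragments). Replicate 3 had the higher fold on fewer fragments, over a background of 4.03 against 6.0 in replicate 2. The microRNA gene MIR3678 and the pseudogene RNU6-938P lay within 5 kb of the summits. Both summits lie in the promoter window, which holds 4 GC boxes, 2 of them sharing letters.
GRB2 (chr17:75405629-75405928, minus strand): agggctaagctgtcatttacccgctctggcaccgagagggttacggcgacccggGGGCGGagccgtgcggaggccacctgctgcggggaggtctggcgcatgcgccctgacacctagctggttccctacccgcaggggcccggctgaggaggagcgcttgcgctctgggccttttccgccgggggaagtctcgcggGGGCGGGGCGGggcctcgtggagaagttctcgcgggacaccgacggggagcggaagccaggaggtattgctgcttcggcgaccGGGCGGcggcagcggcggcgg

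IRS1, the docking protein of the insulin and IGF1 receptors, was the single gene of the set whose strongest peak lay deep inside the gene. Its summit was 7960 bp after the start (position 226799820 of chromosome 2) in replicate 2, with fold 6.14 and −log10 q of 10.4 on 35 fragments. In replicate 3 it was 8016 bp after the start, with fold 5.58 and −log10 q of 8.33 on 29 fragments. The fold exceeded that of 99.3% of all peaks in replicate 2 and 97.6% in replicate 3. The peaks overlapped over 388 bp, 91.7% of the wider one, and no other annotated gene was within 5 kb. The reference table gives no exons, so whether the summit is exonic or intronic was not examined. The start of IRS1 had weaker peaks. In replicate 2 the summit was 174 bp before the start (fold 2.81, −log10 q 1.58), and in replicate 3 summits were 67 bp after it (fold 4.75, −log10 q 5.60) and 666 bp after it (fold 3.06, −log10 q 1.34). The peak before the start and the first of these overlapped by only 4 bp. RHBDD1, a gene on the opposite strand, has its upstream end at position 226800159, within 5 kb of these peaks. The replicate 2 summit, at 226799994, lies between that end and the start of IRS1. The start that the promoter window of RHBDD1 marks was 36060 to 36900 bp away. A peak near the start of IRS1 thus cannot be given to 1 of these genes alone.

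**Figure D3:**
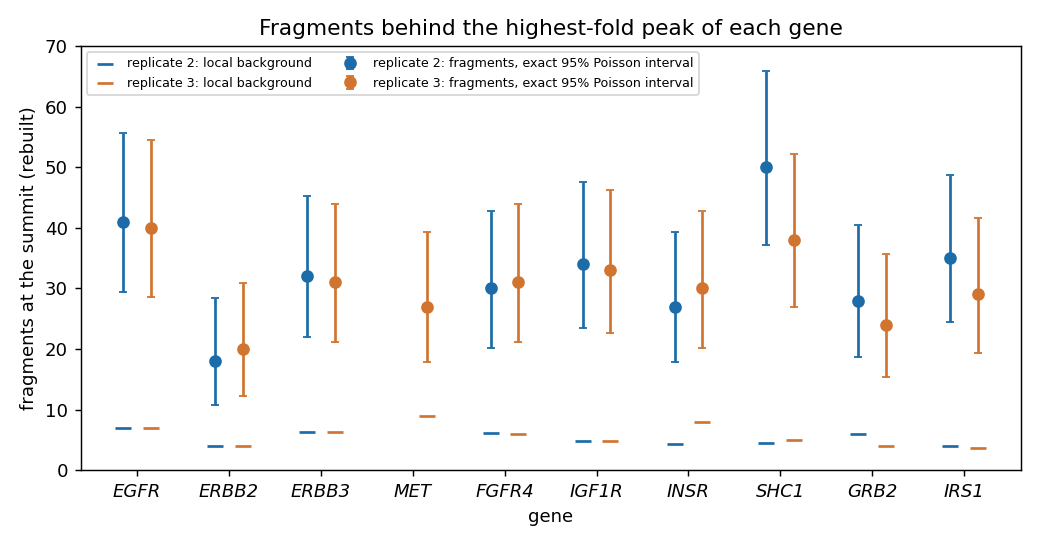
Rebuilt ChIP fragments at the summit of the highest-fold peak of each gene (points, vertical axis; bars are exact 95% Poisson intervals of the count) with the local background (dashes) in replicates 2 and 3. SHC1 in replicate 2 is highest at 50 fragments, and the intervals of the libraries overlap at each gene that has a peak in both. The highest-fold peak was taken in each library by itself, and at IGF1R the peaks drawn are different sites.

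The libraries placed the set's peaks alike in the main. There were 16 overlapping pairs of peaks, 7 with the higher fold in replicate 2 and 9 with the higher fold in replicate 3. A peak that overlapped 2 peaks of the other library was counted in each pair, as at EGFR and IGF1R. The pairs are therefore not all separate sites. Their summits were 2 to 812 bp apart with a median of 168 bp, and 6 pairs were within 100 bp. The largest distance was that between the second peaks at EGFR. Summits within 100 bp of each other were found at EGFR, ERBB2, FGFR4, IGF1R and IRS1.

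Across the 12 promoter windows of the 9 genes, those under a peak and those without one differed in base composition. The 7 windows under a peak in at least 1 library belonged to EGFR, MET, FGFR4, IGF1R, INSR, GRB2 and IRS1 and had 69.3% to 79.7% G and C. The 5 without a peak were both SHC1 windows, the ERBB2 window and the downstream windows of EGFR and FGFR4, with 42.0% to 61.7%. The ranges did not overlap, and the median over 22153 windows of protein-coding genes was 62.3%. The same held over all protein-coding genes in the median, with 72.3% in the 5532 windows under a peak in at least 1 library and 58.7% in the 16621 without one. The ratio of observed to expected CpG was 0.698 to 1.19 in the windows of the set under a peak and 0.0758 to 0.873 in those without. The part of base composition in the peak calls was not tested.

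**Figure D4:**
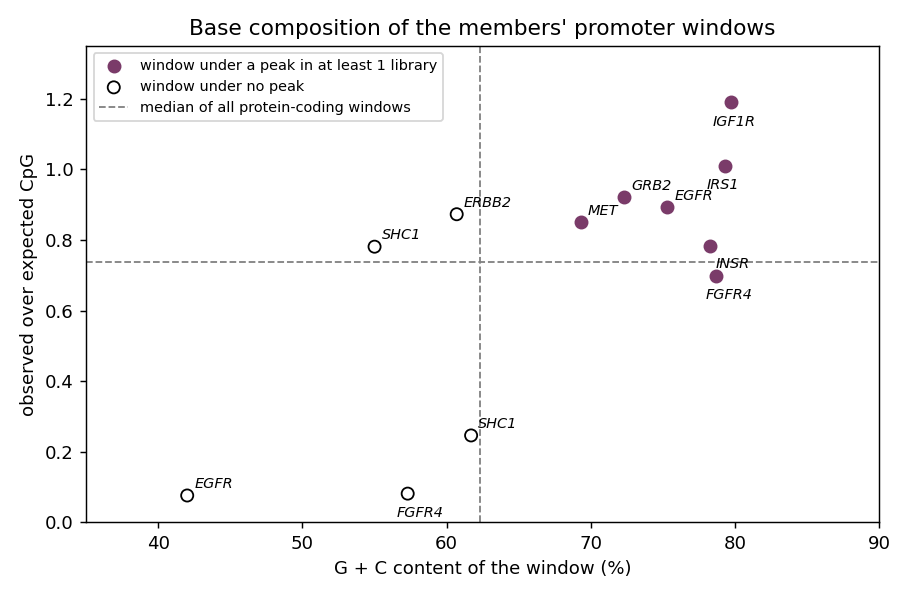
G and C content in % (horizontal axis) against the ratio of observed to expected CpG (vertical axis) of the 12 promoter windows of 9 genes; filled points are windows under a peak in at least 1 library, open points windows under none, and dashed lines the medians of all protein-coding windows (62.3% and 0.738). The 7 filled points all lie right of the 5 open ones.

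Motif matches were counted in the same windows. A match is of letters only and shows no binding. Both strands were searched. GC boxes (GGGCGG) were in 7 of 7 windows of the set under a peak and 1 of 5 without one, and in 87.6% and 45.9% of all protein-coding windows under a peak and without one. The forkhead core TAAACA was in 1 of 12 windows of the set, against 9.52% of all protein-coding windows, and the longer form GTAAACA, which contains it, was in 0 of 12 against 2.85%. In all protein-coding windows the forkhead core was in 3.38% of those under a peak and 11.6% of those without one. The cell cycle homology region TTTGAA was in 1 of 12 windows (12.4% of all), CCAAT in 3 (34.6%), the ETS motif CCGGAAG in 2 (12.8%), the E-box CACGTG in 3 (8.34%), the AP-1 motif TGANTCA in 3 (6.16%) and the NRF1 core TGCGCA in 0 (9.88%). With so few windows these counts are descriptions. The E-boxes were in the windows of MET and IRS1 and in the downstream window of FGFR4. The CCAAT boxes were in ERBB2 and both SHC1 windows, none of which was under a peak. The AP-1 matches were in ERBB2, 1 SHC1 window and the downstream window of EGFR. The ETS matches were in ERBB2 and 1 SHC1 window, and TTTGAA was in the downstream window of EGFR. None of these windows was under a peak either.

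Other genes of the same signalling were set beside these 10 in 4 lists with 93 genes in all, of which 44 (47.3%) had a peak in both libraries, against 28.5% of all protein-coding genes. Among ligands and co-receptors it was 5 of 19 genes (26.3%), a share near that of all genes. The highest were IGF2, a ligand of IGF1R, with highest folds of 5.13 in replicate 2 and 4.74 in replicate 3, and the neuregulin genes NRG3 (4.53 and 4.29), NRG2 (4.04 and 4.11) and NRG4 (4.002 and 4.68), which encode ligands of the ERBB family. The NRG3 peaks of the libraries did not overlap. Among other receptor tyrosine kinases it was 10 of 27 (37.0%). They were led by FGFR3 (5.20 and 4.83) and TYRO3, a receptor of the AXL family (5.17 and 4.63). FGFR1 (4.56 and 4.56) and the ephrin receptor gene EPHB4 (6.02 and 4.51) followed.

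Other adaptors, docking proteins and SH2 partners had peaks in both libraries at 17 of 28 genes (60.7%). SH2B2, an adaptor of the insulin receptor, led with 6.59 in replicate 2 and 5.64 in replicate 3. It was followed by PIK3R2, a regulatory subunit of PI3 kinase (5.22 and 5.66), IRS2, the second main insulin receptor substrate of liver (4.95 and 5.41), and STAP2 (4.84 and 5.70). Inhibitors of receptor signalling had them at 12 of 19 genes (63.2%). These were led by ERRFI1, an inhibitor of EGFR (4.77 and 5.24), and SOCS3, which restrains cytokine and insulin signals (5.40 and 4.24). ENPP1, which binds and inhibits the insulin receptor (4.04 and 4.03), and SOCS2 (3.96 and 3.92) came next. The shares of the lists take no account of gene length, and a longer gene has more room for a peak. Among the genes named from the lists, NRG4, SH2B2 and STAP2 did not have a summit within 1 kb of a start in both libraries. IGF2, FGFR1 and SOCS2 have no value by that measure, and the others named did have one. Neighbours of the list genes were not examined, so whether these peaks also lie at the start of another gene is not known here. The lists were also chosen with earlier results of these data known, so their shares are descriptions only. Differences between the lists were not tested.

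**Figure D5:**
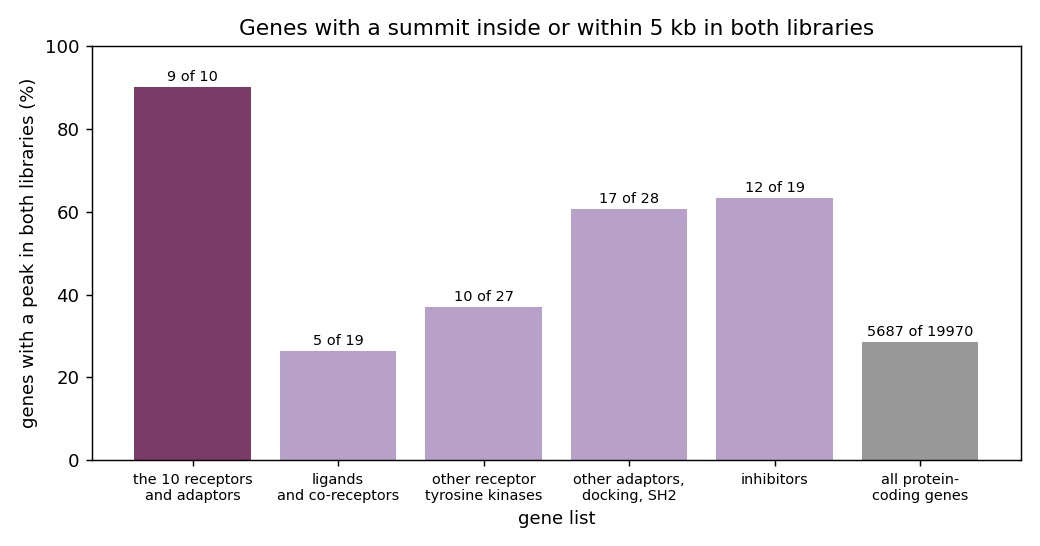
Share of genes in % (vertical axis, from 0) with a summit inside or within 5 kb in both libraries, for the 10 receptors and adaptors, the 4 lists of related genes and all protein-coding genes, with counts above the bars. The 10 genes stand at 9 of 10, the ligands at 5 of 19 and all protein-coding genes at 5687 of 19970. The shares take no account of gene length, and the genes and lists were chosen with earlier results of these data known. The 9 genes include ERBB2 and SHC1, whose peaks lay near the start of a neighbouring gene.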

How the data were processed

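FOXM1 ChIP-seq peak lists of 2 libraries were used, 1 list per library. The tools named per the submitters' processing notes are BWA, MACS2 2.2.7.1 and CASAVA 1.4, on GRCh38, with no role or order given; filters and duplicate handling are not given in the sources used here. The deposited fold is a linear ratio at the summit, and the authors also deposited −log10 p, −log10 q and the summit offset. The deposited score repeats the −log10 q and was not used. The summit lists matched the peak lists.

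Fragment counts were solved from each peak's deposited fold with its −log10 p, taking fold as scaled count plus 1 over background plus 1 and p as a Poisson upper tail. All peaks (100%) came back within 0.001 of the deposited −log10 p, with scales of 0.848 and 0.869, and the step was tested on simulated data. Lists held medians of 26 and 24.5 fragments a summit in replicates 2 and 3. Intervals cover counting error only.

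Genes, starts and promoter windows are RefSeq's (GRCh38.p14), with 1-based positions. Genes on chromosomes 1 to 22 and X were used. Members, gene lists and motifs were chosen with earlier results of these data known. The text names all members, genes that share a member's peak and up to 4 genes of each list by the lower fold of the 2 libraries. Alternatives were other windows, thresholds, definitions of shared peaks and each library alone. Python 3.11.15, numpy 2.4.6, pandas 2.3.3, SciPy 1.17.1 and matplotlib 3.10.9 were used.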

Additional observations from a re-analysis of the deposited data

How the results depend on the processing

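The count of 9 of 10 genes with a peak in both libraries was the same within 10 kb (31.4% of all protein-coding genes) and with overlapping peaks, and came to 8 within 1 kb (25.5%) and 6 with reciprocal overlap of at least 50% (16.9%). It was 4 with −log10 q of at least 5, with fold of at least 4 and with summits inside the gene only, and 5 with summits within 100 bp. The 4 genes were EGFR, IGF1R, SHC1 and IRS1 under both thresholds, against 7.44% and 10.2% of all protein-coding genes, and EGFR, IGF1R, INSR and IRS1 with summits inside. The SHC1 peaks lay beyond its finish and near the start of PYGO2. Of the 93 related genes, 15 stayed at that −log10 q, 19 at that fold, 28 with summits inside, 26 with reciprocal overlap and 21 with summits within 100 bp. For all protein-coding genes the counts were 1485, 2027, 3619, 3372 and 3130 in the same order. Over all gene types the share was 13.7%. These settings keep fewer peaks or count more genes by construction. With a library left out, the counts ran from 9 to 10 for the set, 52 to 57 for the related genes and 6660 to 8256 for all. The highest folds were recomputed within 1 kb, within 10 kb and by −log10 q, and all 55 values equalled those given. No summit lay between 2 and 10 kb, so the wider window could change none. ERBB2 has no value within 1 kb. On the annotated strand alone, 16 of the 108 pairs of a window and a motif held a match, in place of 21. No paired analysis was possible because the ChIP group is the only one with peak lists. Summits of 16 to 50 fragments limit what weak peaks can show.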
